A study of Homo sapiens with 18 samples.

Results

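The genes described here are 31 genes of cholesterol and fatty acid synthesis that belong to the sterol regulatory element-binding protein (SREBP) pathway. They were taken from a fixed list of symbols and found by mapping the Ensembl gene identifiers of the count tables to symbols. The rule itself uses no measured value, but the list was drawn up with earlier results of these data known. All 31 were present among the 58825 genes of the tables, and all 31 passed the filter on low counts in every fit. Poly-A RNA of OVCAR-3, an established cell line of high-grade serous ovarian carcinoma, was sequenced in 18 libraries, 3 in each of 6 groups. Cells received DMSO as the control or 1 µM of either i-BET151 or i-BET858, for 4 h or 24 h. Both compounds inhibit the BET bromodomain proteins, which read acetylated histones. All groups, the controls included, were kept in stripped medium in 12-well plates, so the levels given here are those of 1 cell line in that medium. The tables were deposited 1 for each time, and the time of a library was taken from the table that holds it.

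Cells make cholesterol and fatty acids from acetyl-CoA, and the SREBP transcription factors set the levels of most of the enzymes. The precursors of these factors are kept in the membrane of the endoplasmic reticulum together with SCAP. When membrane sterols fall, SCAP carries them to the Golgi apparatus, where proteases release the active factor, and the INSIG proteins hold SCAP back when sterols are plentiful. The 31 genes were ordered by role into 5 regulators (SREBF1, SREBF2, SCAP, INSIG1 and INSIG2), 7 genes of the mevalonate arm (ACAT2, HMGCS1, MVK, PMVK, MVD, IDI1 and FDPS) and 11 genes of the squalene and sterol arm (FDFT1, SQLE, LSS, CYP51A1, TM7SF2, MSMO1, NSDHL, HSD17B7, EBP, SC5D and DHCR7). The sterol carrier STARD4 stood alone, and the fatty acid arm held 7 genes (ACLY, ACACA, FASN, SCD, ELOVL6, FADS1 and FADS2).

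Library totals ranged from 27323969 to 46299994 counts, and the lowest count of any of the 31 genes in any library was 36. The libraries of replicate 3 had counts for 17817 to 20642 genes, against 23674 to 24947 in replicates 1 and 2, and values from replicates 1 and 2 alone are given below where they moved a gene across the test's threshold. HEXIM1, a gene known to rise when BET proteins are inhibited, rose by 1.87 on the log2 scale after 4 h of i-BET858 and by 1.25 after 4 h of i-BET151, and by 1.76 and 1.12 after 24 h, with adjusted p = 5.33e-05 at most. The 5 epithelial and 6 serous ovarian markers were present in all 18 libraries. Of 16 markers of fibroblasts, leukocytes, endothelium, fat and liver cells, ADIPOQ had no count in any library, CD3E had counts in 2 and CD68 in 1. COL1A1 was the most abundant of them at 21.1 to 46.7 CPM (the usual scaling of counts to library size), and the other 15 stayed at or below 4.88 CPM. In bulk libraries, fewer cells of a kind and less RNA per cell cannot be told apart.

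Levels were compared between genes as CPM per kilobase of exon. In the DMSO libraries at 4 h the desaturase SCD had the highest level of the 31 genes, at 148 ± 41.6 CPM per kilobase (SD, n = 3), followed by FASN at 125 ± 28.2, and these differed by less than their spread. TM7SF2 (63.8 ± 7.29), HMGCS1 (56.8 ± 10.7) and PMVK (55.9 ± 4.46) came next. HMGCS1 was within its spread of both, while TM7SF2 and PMVK differed by slightly more than the SD of either. The lowest levels were those of CYP51A1 (0.785 ± 0.168), HSD17B7 (2.50 ± 0.445) and INSIG2 (3.12 ± 0.544). For CYP51A1, the lanosterol demethylase, 68.2% of the exon length is shared with other annotated genes on the same strand, which limits what can be counted for it. The same holds for 36.4% of EBP. Exons of HMGCS1 (37.7%), ACAT2 (22.2%), FDPS (18.6%) and IDI1 (15.0%) overlap genes on the opposite strand, and the strand setting of the counting is not given in the sources used here.

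Each inhibitor changed some of the 31 genes at each time, and the fatty acid arm was the arm in which most of the measured genes fell at 24 h. A gene was called when its adjusted p in edgeR's quasi-likelihood test was under 0.05 (Benjamini-Hochberg adjustment over all genes tested). After 4 h of i-BET858, 6 of 31 genes rose and 1 fell, where 14.5% of all genes tested rose and 16.3% fell. After 4 h of i-BET151, 2 rose and 0 fell, where 7.81% of all genes rose and 8.43% fell. For i-BET151, 5 of the genes had an unadjusted p below 0.05, as 29.5% of all genes did, and DESeq2 called 4, where it called 18.2% of the genes it tested. After 24 h of i-BET858, 6 rose and 6 fell, where 20.5% of all genes rose and 21.3% fell. After 24 h of i-BET151, 4 rose and 8 fell, where 17.2% of all genes rose and 16.6% fell.

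In either direction the share of the 31 genes called was 22.6% and 6.45% after 4 h of i-BET858 and i-BET151, against 30.8% and 16.2% of all genes. After 24 h it was 38.7% with each inhibitor, against 41.7% and 33.8%. In the main test the shares were thus below that of all genes at 4 h and near it at 24 h. The median log2 fold change of the 31 genes was 0.11 and 0.02 after 4 h, where that of all genes was 0.02 and 0.01. It was −0.12 and −0.18 after 24 h, where that of all genes was −0.01 and 0. Scaling by the library total turned the 4 h medians of the 31 genes to −0.06 and −0.03 and moved those at 24 h to −0.21 each. Changes of at least 2-fold were called for 4 genes after 4 h of i-BET858, where 14.1% of all genes tested had one, and for 0 under i-BET151, where 7.1% did. After 24 h they were called for 3 genes under i-BET858 (18.8% of all genes) and 2 under i-BET151 (13.7%). Every called gene moved 1 way in all 9 pairings of a treated with a DMSO library. TM7SF2 was called in all 4 comparisons, 18 of the 31 genes in at least 1, and 13 in none. The calls lost most often over 18 alternative fits were those of NSDHL after 24 h of i-BET151 (11 lost), SQLE after 24 h of i-BET151 (10), SCAP after 24 h of i-BET858 (10), EBP after 4 h of i-BET151 (9) and FASN after 4 h of i-BET858 (8). The block on replicate numbers used below was an alternative to the unblocked main test. With it, 12 genes were called after 4 h of i-BET858 (9 higher, 3 lower), where 45.4% of all genes were. For i-BET151 at 4 h the block raised the count to 10 of 31 (7 higher, 3 lower), where 32.7% of all genes were called. The i-BET151 share at 4 h was thus near that of all genes with the block. At 24 h the blocked counts were 18 for i-BET858 (9 higher, 9 lower), where 52% of all genes were called, and 17 for i-BET151 (5 higher, 12 lower), where 45.9% were. In replicates 1 and 2 alone, 18 genes were called after 24 h of i-BET858 and 20 after 24 h of i-BET151, where 60.7% and 54.2% of all genes were. That fit called 4 genes after 4 h of i-BET151, where 25.9% of all genes were called.

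**Figure D1:**
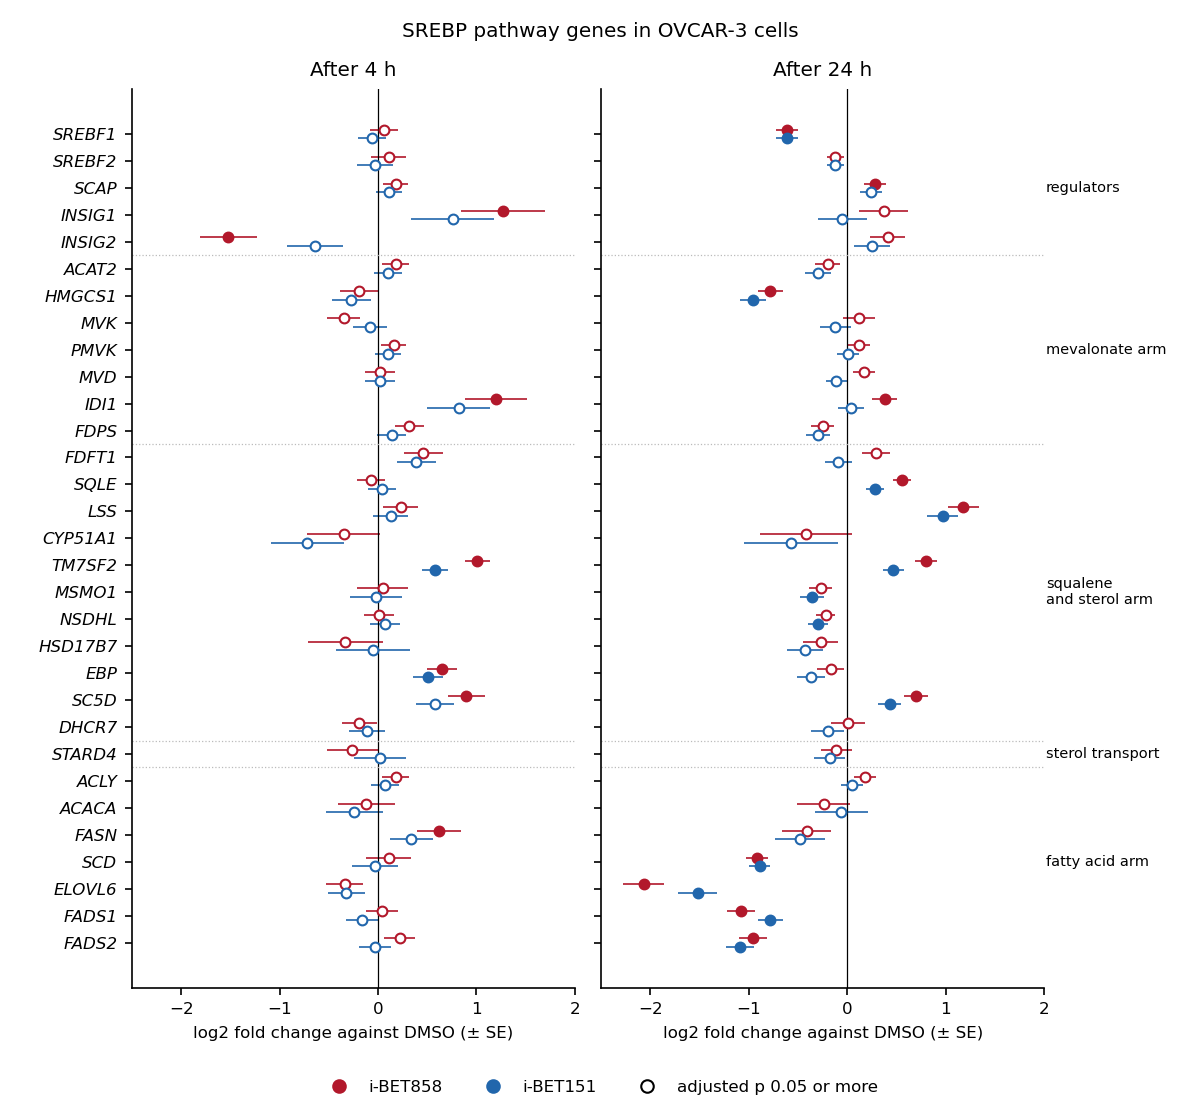
Log2 fold change against DMSO (x axis, ± SE, 3 libraries in each group) of each of the 31 genes, ordered by role, after 4 h (left) and 24 h (right), under i-BET858 in red, i-BET151 in blue and filled points for an adjusted p under 0.05. INSIG1 and INSIG2 lie on opposite sides of 0 after 4 h of i-BET858, and SCD, ELOVL6, FADS1 and FADS2 lie left of 0 at 24 h with both inhibitors.

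Among the regulators, the INSIG genes moved in opposite directions after 4 h of i-BET858. INSIG1 (chromosome 7, 155297776 to 155310235, plus strand, GRCh38), which is itself a target of the SREBPs and is induced when they are active, had 75.9, 34.2 and 40.6 CPM in the DMSO libraries of replicates 1, 2 and 3. It had 182, 91.3 and 91.1 CPM under i-BET858 and 144, 49.8 and 63.2 under i-BET151. Replicate 1 was the highest library in each of these groups, all 3 i-BET858 libraries lay above the 3 DMSO libraries, and the i-BET151 libraries overlapped with both. INSIG1 rose 2.42-fold under i-BET858 (log2 fold change 1.27 ± 0.43 SE, adjusted p = 0.0413). The call was lost when replicate 2 or 3 of DMSO or replicate 1 or 2 of i-BET858 was left out (log2 fold changes 0.86 to 1.44, adjusted p 0.0537 to 0.178), with DESeq2 (adjusted p = 0.0613) and under scaling by the library total (0.0684). Within replicate numbers the log2 ratios were 1.26, 1.42 and 1.17, and the blocked fit gave an adjusted p of 2.21e-07. Under i-BET151 INSIG1 stood at 0.76 ± 0.42 (adjusted p = 0.261, or 0.000143 with the block), at log2 ratios of 0.92, 0.54 and 0.64 within replicate numbers. At 24 h INSIG1 had 28.7, 30.1 and 42.4 CPM with DMSO, 42.1, 42.9 and 49.3 under i-BET858 and 24.8, 26.2 and 48.3 under i-BET151. The groups overlapped, and neither inhibitor passed the test (log2 fold changes 0.37 and −0.05). With the block, INSIG1 was called after 24 h of i-BET858 (adjusted p = 0.022). In replicates 1 and 2 alone it was higher under i-BET858 (0.50, adjusted p = 0.000274) and lower under i-BET151 (−0.24, adjusted p = 0.0298).

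INSIG2 (chromosome 2, 118088452 to 118110997, plus strand), whose product holds SCAP in the endoplasmic reticulum as INSIG1 does but whose gene is not a classic SREBP target, had 12.3, 14.5 and 10.2 CPM with DMSO at 4 h. It had 5.04, 4.82 and 3.01 CPM under i-BET858 and 8.20, 10.4 and 5.23 under i-BET151. The i-BET858 libraries lay below all DMSO libraries, and of the i-BET151 libraries 1 lay inside the DMSO range and 2 below it. INSIG2 was 2.87-fold lower after 4 h of i-BET858 (log2 fold change −1.52 ± 0.29, adjusted p = 0.00212), a call kept in all 18 alternative fits. The i-BET151 value was −0.64 ± 0.28 (adjusted p = 0.158, and 0.00797 when blocked). At 24 h INSIG2 had 14.1, 13.7 and 10.2 CPM in DMSO, 19.1, 17.0 and 15.6 under i-BET858 and 16.9, 16.9 and 11.8 under i-BET151. The i-BET858 libraries lay above all DMSO libraries at that time, but the log2 fold change of 0.41 ± 0.18 did not pass the test (adjusted p = 0.0916). It passed with the replicate block (0.0101), in replicates 1 and 2 alone (0.35, adjusted p = 0.014) and without replicate 3 of i-BET151 (0.0459).

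The SREBP genes themselves differed from each other. SREBF1 encodes SREBP-1, the form most tied to fatty acid synthesis, and had 218, 191 and 194 CPM with DMSO at 4 h, 226, 188 and 214 under i-BET858 and 216, 156 and 207 under i-BET151, so that the groups overlapped. After 24 h SREBF1 had 186, 190 and 191 CPM with DMSO, 126, 123 and 133 under i-BET858 and 116, 114 and 146 under i-BET151. All treated libraries lay below all DMSO libraries at 24 h. SREBF1 fell 1.53-fold with each inhibitor (−0.61 ± 0.11 for both, adjusted p = 0.00131 for the former and 0.00176 for the latter). Both calls held in the 18 alternative fits, and both changes are under 2-fold. SREBF2 encodes SREBP-2, the form most tied to cholesterol synthesis. It had 218, 204 and 254 CPM with DMSO, 204, 211 and 313 under i-BET858 and 211, 186 and 264 under i-BET151 at 4 h. After 24 h SREBF2 had 209, 205 and 203 CPM with DMSO, 203, 197 and 181 under i-BET858 and 179, 186 and 209 under i-BET151. SREBF2 was not called in any comparison with DMSO, with log2 fold changes of 0.11 and −0.03 at 4 h and −0.12 with each inhibitor at 24 h (95% confidence interval −0.33 to 0.09). In replicates 1 and 2 alone, the change after 24 h of i-BET151 was −0.22 (adjusted p = 0.0127).

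SCAP, the escort of the SREBPs, had 161, 155 and 179 CPM with DMSO, 169, 173 and 219 under i-BET858 and 162, 175 and 201 under i-BET151 at 4 h. After 24 h SCAP had 162, 168 and 192 CPM with DMSO, 215, 220 and 219 under i-BET858 and 213, 190 and 224 under i-BET151. The i-BET858 libraries lay above all DMSO libraries at 24 h, and the i-BET151 libraries overlapped with them. SCAP was 1.22-fold higher after 24 h of i-BET858 (0.28 ± 0.11, adjusted p = 0.0498). This call was lost without any 1 of the 3 i-BET858 libraries, replicate 1 or 2 of DMSO or replicate 1 of i-BET151 (log2 fold changes 0.23 to 0.30, adjusted p up to 0.165). It was also lost with DESeq2, with either other scaling and without the low-count filter. With i-BET151 the value was 0.24 ± 0.11 (adjusted p = 0.103, against 0.0291 when blocked, 0.0118 in replicates 1 and 2 alone and 0.0232 without replicate 3 of DMSO).

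**Figure D2:**
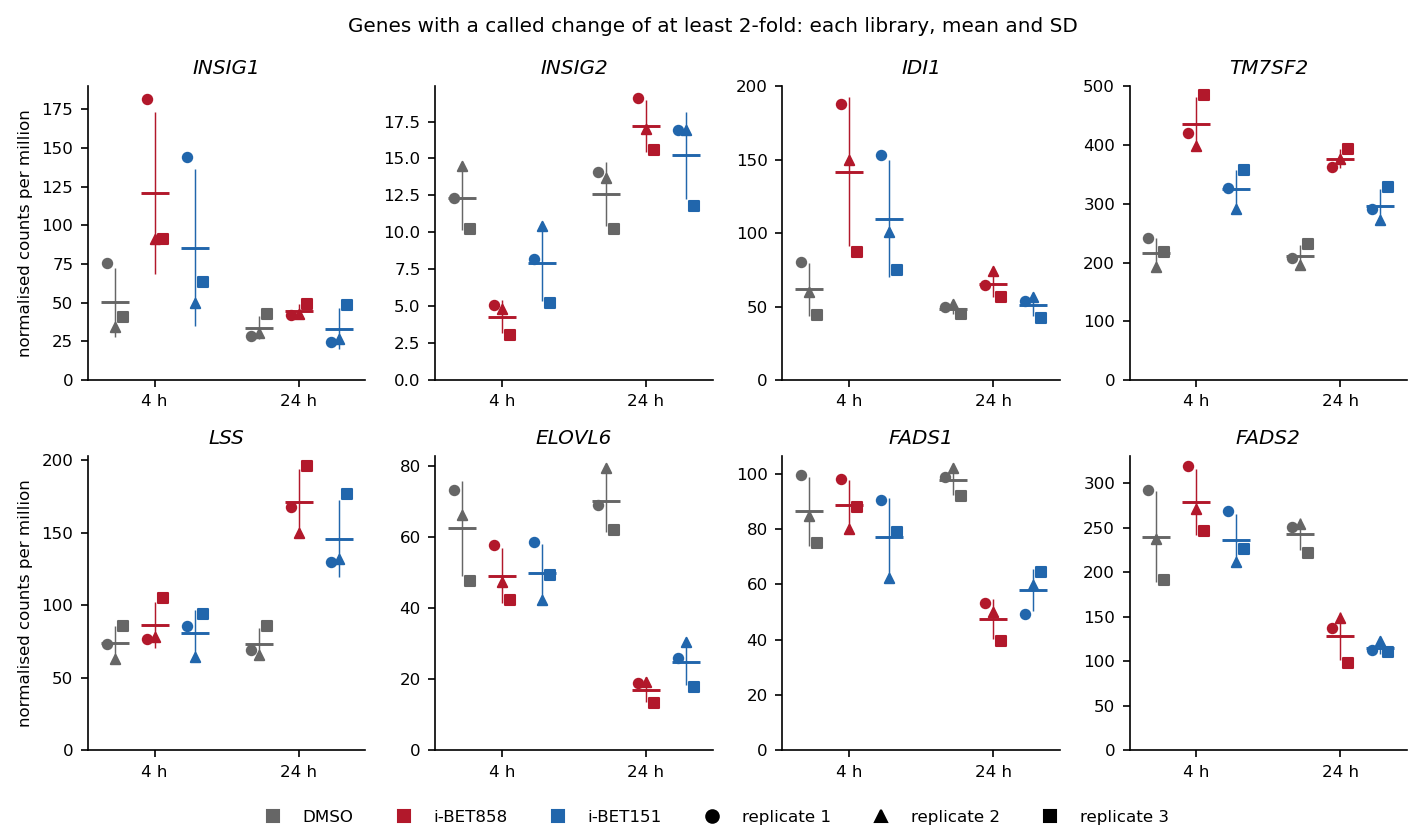
Normalised CPM (y axis, from 0) of the 8 genes with a called change of at least 2-fold against DMSO, by time (x axis) and treatment (DMSO grey, i-BET858 red, i-BET151 blue), with 1 point for each library, the mean as a horizontal line and the SD as a vertical line (n = 3). INSIG2 is low after 4 h of i-BET858 and back above DMSO at 24 h, while the ELOVL6 libraries of both inhibitors at 24 h lie at or below 30.6 CPM against at least 61.9 with DMSO.

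The promoters of genes that moved are shown because SREBPs act there, together with NF-Y, which binds CCAAT boxes, and SP1, which binds GC boxes. Promoters (250 bases before to 50 bases after a start) were taken from RefSeq (GRCh38.p14), where 27 of the 31 genes were matched, with 37 promoters in all. SQLE, FDFT1, ACAT2 and FASN were not matched. Both strands of the 250 bases before each start were searched for TCACNCCAC, a form of the sterol regulatory element. The 50 bases after the start were not searched. The search also covered the CCAAT box bound by NF-Y. Another motif was the GC box, in the form GGGCGG. The last was the E-box, spelled CACGTG, which SREBPs can also bind. Each motif was counted on its own, so that matches of different motifs may overlap. TCACNCCAC was found in 1 of the 37 promoters, that of SREBF2, and in 0.88% of all 35116 promoters. CCAAT was found in 23 (62.2%), against 32.0% of all promoters, GGGCGG in 33 (89.2%) against 42.6%, and CACGTG in 4 (10.8%) against 6.34%. A match is a description of the letters only. The stretches below, read 5′ to 3′ on the strand of the gene, lie outside annotated exons, and capitals mark the motifs found. They are INSIG1 (chr7:155297628-155297775, plus strand), INSIG2 (chr2:118088292-118088451, plus), IDI1 (chr10:1049120-1049279, minus), LSS (chr21:46228825-46228984, minus), SCD (chr10:100347073-100347232, plus) and ELOVL6 (chr4:110198654-110198813, minus), whose RefSeq start lies inside the gene as GENCODE annotates it.
INSIG1: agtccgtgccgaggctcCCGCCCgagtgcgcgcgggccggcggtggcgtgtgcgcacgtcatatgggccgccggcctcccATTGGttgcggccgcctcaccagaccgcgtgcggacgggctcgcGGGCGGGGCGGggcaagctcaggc
INSIG2: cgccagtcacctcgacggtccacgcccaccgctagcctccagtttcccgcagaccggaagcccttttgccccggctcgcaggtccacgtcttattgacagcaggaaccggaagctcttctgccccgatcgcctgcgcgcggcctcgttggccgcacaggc
IDI1: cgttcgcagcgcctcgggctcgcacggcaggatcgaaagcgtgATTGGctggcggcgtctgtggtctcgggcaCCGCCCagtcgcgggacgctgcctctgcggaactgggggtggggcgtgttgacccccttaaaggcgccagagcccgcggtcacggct
LSS: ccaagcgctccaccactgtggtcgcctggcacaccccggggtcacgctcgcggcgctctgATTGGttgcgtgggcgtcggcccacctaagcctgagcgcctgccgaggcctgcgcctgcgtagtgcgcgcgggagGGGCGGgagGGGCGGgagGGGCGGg
SCD: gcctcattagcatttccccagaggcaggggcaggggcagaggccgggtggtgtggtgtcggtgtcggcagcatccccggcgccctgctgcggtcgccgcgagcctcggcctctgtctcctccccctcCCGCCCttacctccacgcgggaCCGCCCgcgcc
ELOVL6: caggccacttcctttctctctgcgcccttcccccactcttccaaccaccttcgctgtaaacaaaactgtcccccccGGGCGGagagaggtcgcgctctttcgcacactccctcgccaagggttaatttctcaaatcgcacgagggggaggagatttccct
The stretches of INSIG1, IDI1 and LSS hold CCAAT and GC boxes, those of SCD and ELOVL6 hold GC boxes, and that of INSIG2 holds none of the 4 motifs. The stretches are shorter than the 250 bases searched. The 250 bases searched for INSIG1 also hold an E-box, those for SCD a CCAAT box and those for INSIG2 a GC box. No contrast between genes that rose and genes that fell was tested.

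In the mevalonate arm, IDI1 rose early and HMGCS1 fell late, and most of the other genes were not called. IDI1 (chromosome 10, 1039152 to 1049119, minus strand), the isomerase that makes the reactive isoprenoid unit, had 80.7, 60.2 and 44.5 CPM with DMSO, 188, 150 and 87.1 under i-BET858 and 153, 101 and 74.9 under i-BET151 at 4 h. Replicate 1 was the highest and replicate 3 the lowest library in all 3 groups, and every i-BET858 library lay above every DMSO library. IDI1 rose 2.29-fold under i-BET858 (1.20 ± 0.32, adjusted p = 0.014), a call lost when replicate 2 or 3 of DMSO or replicate 1 of i-BET858 was left out (0.94 to 1.17, adjusted p 0.0506 to 0.0628). Within replicate numbers the log2 ratios were 1.22, 1.32 and 0.97. With i-BET151 IDI1 was at 0.82 ± 0.32 (adjusted p = 0.105), with log2 ratios of 0.92, 0.75 and 0.75 within replicate numbers. It was called with the block (adjusted p = 1.64e-05), in replicates 1 and 2 alone (0.00749) and without replicate 3 of i-BET151 (0.0439). At 24 h IDI1 had 49.6, 51.5 and 44.7 CPM with DMSO, 64.4, 74.2 and 56.7 under i-BET858 and 53.9, 56.3 and 42.4 under i-BET151. It was 1.30-fold higher under i-BET858 (0.38 ± 0.13, adjusted p = 0.0388) and at 0.04 under i-BET151. The i-BET858 call was lost without any 1 of the DMSO libraries or replicate 1 or 2 of i-BET858 (0.28 to 0.42, adjusted p up to 0.161).

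HMGCS1, the synthase that makes HMG-CoA, had a mean of 267 ± 26.8 CPM with DMSO at 24 h, 160 ± 19.3 under i-BET858 and 140 ± 16.3 under i-BET151 (SD, n = 3). It fell 1.71-fold under i-BET858 (−0.78 ± 0.13, adjusted p = 0.000779) and 1.94-fold under i-BET151 (−0.96 ± 0.13, adjusted p = 0.000313), with all treated libraries below all DMSO libraries. Both calls held in the 18 alternative fits, and neither change reached 2-fold. At 4 h its log2 fold changes were −0.19 and −0.27, and that of i-BET151 was called only with the replicate block (adjusted p = 0.0476). In the DMSO libraries HMGCS1 was itself lower at 24 h than at 4 h, by −0.49, which did not pass the test (unadjusted p = 0.0124, adjusted p = 0.354). FDPS, which makes farnesyl diphosphate, was at 0.32 and 0.14 at 4 h and at −0.25 and −0.30 at 24 h. With the block FDPS was called higher after 4 h of i-BET858 (adjusted p = 0.0248) and lower at 24 h for both inhibitors (0.0238 and 0.0124). In replicates 1 and 2 alone it was also lower at 24 h under both (−0.26 and −0.30, adjusted p = 0.0273 and 0.0161). MVK, the mevalonate kinase, was at −0.35 after 4 h of i-BET858 (adjusted p = 0.147, or 0.0236 with the block) and within 0.12 of 0 in the other comparisons with DMSO. ACAT2 was at −0.30 after 24 h of i-BET151 (adjusted p = 0.0907, 0.0168 with the block and 0.0141 in replicates 1 and 2 alone). PMVK and MVD, the later enzymes of mevalonate activation, had log2 fold changes of −0.11 to 0.17 and were called in no comparison with DMSO, with or without the block.

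In the squalene and sterol arm, TM7SF2 rose in all 4 comparisons with DMSO, and LSS and SQLE rose at 24 h with each inhibitor. Of the 11 genes 4 rose and 0 fell after 24 h of i-BET858, where 20.5% and 21.3% of all genes did. After 24 h of i-BET151 4 rose and 2 fell, where 17.2% and 16.6% of all genes did, and 7 of the 11 values were negative (median −0.20). TM7SF2 (chromosome 11, 65111845 to 65116384, plus strand), a sterol reductase that acts just after lanosterol demethylation, had 242, 192 and 218 CPM with DMSO, 421, 399 and 486 under i-BET858 and 327, 292 and 357 under i-BET151 at 4 h. After 24 h TM7SF2 had 208, 195 and 231 CPM with DMSO, 362, 376 and 394 under i-BET858 and 291, 273 and 329 under i-BET151. The 3 treatments did not overlap at either time, and i-BET858 was the highest. TM7SF2 rose 2.01-fold and 1.49-fold after 4 h of i-BET858 and i-BET151 (1.01 ± 0.13 and 0.58 ± 0.13, adjusted p = 0.000144 and 0.00981). At 24 h it rose 1.74-fold and 1.39-fold (0.80 ± 0.11 and 0.47 ± 0.11, adjusted p = 0.000199 and 0.00681). These 4 calls were kept in the 18 alternative fits, and only that of i-BET858 at 4 h reached 2-fold.

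LSS (chromosome 21, 46188141 to 46228824, minus strand), the lanosterol synthase that closes the sterol rings, had 73.5, 62.9 and 86.0 CPM with DMSO, 77.0, 78.0 and 105 under i-BET858 and 85.7, 64.2 and 93.8 under i-BET151 at 4 h. The groups overlapped at that time, and the log2 fold changes of 0.23 and 0.13 did not pass the test. At 24 h LSS had 69.2, 65.6 and 86.0 CPM with DMSO, 168, 150 and 196 under i-BET858 and 130, 132 and 177 under i-BET151. All treated libraries lay above all DMSO libraries, and replicate 3 was the highest library in each group. LSS rose 2.26-fold under i-BET858 (1.18 ± 0.16, adjusted p = 0.000227) and 1.95-fold under i-BET151 (0.97 ± 0.16, adjusted p = 0.00117). Both calls held in the 18 alternative fits, and only that of i-BET858 reached 2-fold.

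SC5D, a sterol desaturase near the end of the pathway, rose from 53.5 ± 7.23 CPM with DMSO to 99.5 ± 23.5 after 4 h of i-BET858 (0.90 ± 0.19, adjusted p = 0.0039). With i-BET151 at 4 h it reached 80.4 ± 12.8 CPM (0.58 ± 0.19, adjusted p = 0.0578), and it was called there with DESeq2, with the block (0.0013), in replicates 1 and 2 alone (0.0126) and when replicate 3 of i-BET858 was left out of the fit (0.0187). At 24 h SC5D rose by 0.70 ± 0.12 under i-BET858 (adjusted p = 0.000939) and by 0.43 ± 0.12 under i-BET151 (adjusted p = 0.0192). The i-BET151 call at 24 h was lost without replicate 1 or 2 of DMSO or replicate 2 or 3 of i-BET151 (0.35 to 0.40, adjusted p up to 0.0751).

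SQLE, the squalene epoxidase, was at −0.07 and 0.04 at 4 h and rose at 24 h, from 110 ± 8.38 CPM in DMSO to 168 ± 2.78 under i-BET858 (0.56 ± 0.09, adjusted p = 0.000725) and 137 ± 4.78 under i-BET151 (0.28 ± 0.09, adjusted p = 0.0384). The i-BET151 call was lost without any 1 of the 3 i-BET151 libraries, replicate 1 or 2 of DMSO or replicate 1 or 2 of i-BET858 (0.24 to 0.31, adjusted p up to 0.143), while that of i-BET858 was kept in the 18 alternative fits. EBP, a sterol isomerase, rose at 4 h, from 14.5 ± 1.31 CPM in DMSO to 22.7 ± 3.13 under i-BET858 (0.65 ± 0.15, adjusted p = 0.00796) and 20.7 ± 1.44 under i-BET151 (0.51 ± 0.15, adjusted p = 0.0451). The i-BET151 call was lost without any 1 of the DMSO or i-BET151 libraries (0.44 to 0.57, adjusted p 0.0767 to 0.144) and in replicates 1 and 2 alone (0.39, adjusted p = 0.124). At 24 h EBP was at −0.17 and −0.37, and the value under i-BET151 (adjusted p = 0.068) was called with the block (0.0228), in replicates 1 and 2 alone (0.0246), without replicate 1 of DMSO (0.0425) and without replicate 3 of i-BET151 (0.0472).

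MSMO1 and NSDHL, which remove methyl groups from the sterol core, fell after 24 h of i-BET151 by small amounts. MSMO1 was at −0.36 ± 0.12 (adjusted p = 0.0356) and NSDHL at −0.30 ± 0.10 (adjusted p = 0.0415). The MSMO1 call was lost without replicate 1 or 2 of i-BET151, replicate 1 or 3 of i-BET858 or replicate 3 of DMSO (−0.36 to −0.21, adjusted p up to 0.11). The NSDHL call was lost without any 1 of the 8 libraries other than replicate 3 of i-BET151 (−0.34 to −0.23, adjusted p up to 0.16). After 24 h of i-BET858 they were at −0.27 and −0.22 and not called, MSMO1 with an adjusted p of 0.0284 with the block. FDFT1, the squalene synthase, was at 0.46 after 4 h of i-BET858 (adjusted p = 0.103) and 0.39 after 4 h of i-BET151 (adjusted p = 0.212). With the block these became 0.000623 and 0.00324, and FDFT1 was called after 4 h of i-BET858 also without replicate 3 of i-BET858 (0.0456). At 24 h FDFT1 was at 0.29 under i-BET858 (adjusted p = 0.121), called with the block (0.0138), in replicates 1 and 2 alone (0.44, adjusted p = 0.000113) and without replicate 3 of DMSO (0.00193), and at −0.09 under i-BET151. CYP51A1 had 1.00 to 3.95 CPM and negative log2 fold changes in all 4 comparisons with DMSO, −0.35 and −0.72 at 4 h and −0.42 and −0.57 at 24 h. Only the i-BET151 value at 4 h was called, with the block (adjusted p = 0.0475) and in replicates 1 and 2 alone (0.0466). HSD17B7, a sterol ketone reductase, was at −0.43 to −0.05 and DHCR7, which makes cholesterol in the last step, at −0.20 to 0.01, and neither was called. In replicates 1 and 2 alone DHCR7 was called after 24 h of i-BET151 (−0.24, adjusted p = 0.0113). STARD4, which carries sterols between membranes, was at −0.26 and 0.02 at 4 h and at −0.11 and −0.18 at 24 h, and was not called.

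In the fatty acid arm, 4 of 7 genes fell at 24 h with each inhibitor, and they were the same genes, the desaturases SCD, FADS1 and FADS2 and the elongase ELOVL6. Of all genes, 21.3% fell under i-BET858 and 16.6% under i-BET151 at that time. The arm had a median log2 fold change of −0.92 under i-BET858 and −0.78 under i-BET151 at 24 h, and 0.11 and −0.03 at 4 h. Since both comparisons use the same DMSO libraries, the values of the inhibitors are given side by side only. ELOVL6 (chromosome 4, 110045846 to 110199199, minus strand), which extends palmitate, had 73.3, 66.3 and 47.5 CPM with DMSO, 57.6, 47.4 and 42.4 under i-BET858 and 58.5, 42.4 and 49.2 under i-BET151 at 4 h, where the groups overlapped. At 24 h it had 69.1, 79.3 and 61.9 CPM with DMSO, 18.9, 19.3 and 13.2 under i-BET858 and 25.9, 30.6 and 17.8 under i-BET151. All treated libraries were below all DMSO libraries, and i-BET858 was the lower in each replicate number. ELOVL6 fell 4.20-fold under i-BET858 (−2.07 ± 0.21, adjusted p = 2.33e-05) and 2.87-fold under i-BET151 (−1.52 ± 0.20, adjusted p = 0.000249). At 4 h it was at −0.34 and −0.32, called for i-BET858 only with the block (adjusted p = 0.0314).

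FADS1 and FADS2 encode the desaturases of polyunsaturated fatty acids. They lie on opposite strands of chromosome 11, with FADS1 inside the annotated span of FADS2. FADS1 (61799627 to 61829318, minus strand) had 99.7, 84.8 and 74.9 CPM with DMSO, 98.1, 80.2 and 87.9 under i-BET858 and 90.4, 62.5 and 79.1 under i-BET151 at 4 h. After 24 h FADS1 had 98.8, 102 and 91.8 CPM with DMSO, 53.3, 50 and 39.4 under i-BET858 and 49.4, 59.8 and 64.4 under i-BET151. The treated libraries overlapped with DMSO at 4 h and lay below all of them at 24 h. FADS1 fell 2.11-fold under i-BET858 (−1.08 ± 0.14, adjusted p = 0.000117) and 1.71-fold under i-BET151 (−0.78 ± 0.13, adjusted p = 0.00133). FADS2 (61792980 to 61867354, plus strand) had 293, 237 and 191 CPM with DMSO, 319, 271 and 246 under i-BET858 and 269, 212 and 226 under i-BET151 at 4 h. At 24 h it had 251, 254 and 222 CPM with DMSO, 138, 149 and 97.8 under i-BET858 and 113, 123 and 110 under i-BET151. Here too the groups separated at 24 h only. FADS2 fell 1.94-fold under i-BET858 (−0.96 ± 0.14, adjusted p = 0.000338) and 2.13-fold under i-BET151 (−1.09 ± 0.14, adjusted p = 0.000232). After 4 h of i-BET858 it was at 0.22, called only with the block (adjusted p = 0.0422). Exons of FADS1 and FADS2 overlap each other over 4.8% and 4.6% of their lengths.

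SCD, the stearoyl-CoA desaturase that makes monounsaturated fatty acids, went from 608 ± 25.6 CPM in DMSO to 331 ± 16.5 under i-BET858 and 333 ± 50.3 under i-BET151 at 24 h (SD, n = 3). It fell 1.89-fold and 1.85-fold (−0.92 ± 0.11 and −0.89 ± 0.11, adjusted p = 0.000107 and 0.000205). At 4 h SCD was at 0.11 and −0.03 and was not called. The 8 calls of ELOVL6, FADS1, FADS2 and SCD at 24 h were kept in the 18 alternative fits, and those of ELOVL6 with both inhibitors, FADS1 under i-BET858 and FADS2 under i-BET151 reached 2-fold. Over the same libraries the summed level of the 5 epithelial markers was 5530 to 6110 CPM after 24 h of i-BET858 and 5830 to 6370 after 24 h of i-BET151, against 8080 to 9760 with DMSO, and its part in these falls was not tested. The lower sum lay in the keratins, with means of 5620, 4120 and 3990 CPM for KRT8 in DMSO, i-BET858 and i-BET151, 1540, 617 and 767 for KRT18 and 712, 417 and 454 for KRT7. CDH1 had higher means in the treated groups (223, 483 and 399 CPM), and EPCAM stood at 408, 426 and 399 CPM. The summed level of the 4 fat and liver cell markers stayed between 0.91 and 3.9 CPM in all groups.

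FASN, the fatty acid synthase, was called only after 4 h of i-BET858 in the main test. It rose from 1160 ± 262 CPM with DMSO to 1780 ± 369 after 4 h of i-BET858 (0.62 ± 0.22, adjusted p = 0.0493), a call lost without any 1 of the i-BET858 libraries, replicate 1 or 2 of DMSO or replicate 1 of i-BET151 (0.44 to 0.73, adjusted p up to 0.175). Within replicate numbers the log2 ratios were 0.51, 0.74 and 0.63, and the blocked fit gave an adjusted p of 3.17e-06. After 4 h of i-BET151 FASN was at 0.34 (adjusted p = 0.334, or 0.00175 with the block). At 24 h it had 992 ± 198 CPM with DMSO, 767 ± 141 under i-BET858 (−0.41 ± 0.25, adjusted p = 0.218) and 721 ± 282 under i-BET151 (−0.48 ± 0.25, adjusted p = 0.169). Replicate 3 of i-BET151, at 1050 CPM, stood above the other two at 558 and 559. Without it FASN was at −0.86 (adjusted p = 0.0063), and in the blocked fit it was called for both inhibitors (0.00296 and 0.000618). In replicates 1 and 2 alone it was at −0.39 under i-BET858 (adjusted p = 8.91e-05) and −0.69 under i-BET151 (adjusted p = 1.28e-06). ACLY, which supplies acetyl-CoA from citrate, was at 0.18 and 0.07 at 4 h and at 0.18 and 0.05 at 24 h. It was called only after 24 h of i-BET858 without replicate 3 of DMSO (0.30, adjusted p = 0.0482) or in replicates 1 and 2 alone (0.0299). ACACA, the acetyl-CoA carboxylase of the first committed step, was at −0.24 to −0.06 with SEs of 0.27 to 0.29 and was not called.

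The change of each effect from 4 to 24 h was tested by an interaction of treatment and time, fitted over the 18 libraries together. For i-BET858, 11 of 31 genes were called, 3 with a higher and 8 with a lower effect at 24 h, where 14.6% of all genes had a higher and 12.6% a lower one. The blocked fit called 14, 4 higher and 10 lower, where 38.3% of all genes were called, and the genes added were HMGCS1 (−0.55, adjusted p = 0.0364), MVK (0.51, adjusted p = 0.0419) and IDI1 (−0.76, adjusted p = 0.00733). IDI1 was also called in replicates 1 and 2 alone (−0.82, adjusted p = 0.0143). For i-BET151, 4 were called, 1 higher and 3 lower, where 6.99% and 6.82% of all genes were. Of the fatty acid arm, 5 of 7 genes had a lower effect at 24 h under i-BET858 and 2 of 7 under i-BET151. The interaction was largest in size for INSIG2 under i-BET858 (1.97 ± 0.35, adjusted p = 0.000469), from −1.52 at 4 h to 0.41 at 24 h. ELOVL6 followed with −1.69 ± 0.29 for i-BET858 (adjusted p = 0.000364) and −1.18 ± 0.29 for i-BET151 (adjusted p = 0.0119). LSS changed by 1.00 ± 0.25 and 0.86 ± 0.25 (adjusted p = 0.00613 and 0.0291), and EBP by −0.77 ± 0.20 and −0.86 ± 0.20 (adjusted p = 0.00793 and 0.00835).

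SREBF1 changed by −0.63 ± 0.18 under i-BET858 (adjusted p = 0.0124) and by −0.53 ± 0.18 under i-BET151 (adjusted p = 0.052, and 0.00729 when blocked). With the block 11 genes were called for i-BET151, 2 higher and 9 lower, where 25.2% of all genes were called. The genes added were SREBF1, INSIG2 (0.93), HMGCS1 (−0.65), IDI1 (−0.77), FASN (−0.84), SCD (−0.83) and FADS1 (−0.59), with adjusted p = 0.0249 at most. For i-BET151, leaving out replicate 1 of DMSO or replicate 2 of i-BET151 at 4 h raised the count to 7 each, where 10.5% of all genes were called in either fit. Leaving out replicate 3 of every group raised it to 9, where 26.3% of all genes were called. The genes added there were SREBF1 (−0.59, adjusted p = 0.0269), INSIG2 (0.79, adjusted p = 0.0144), IDI1 (−0.75, adjusted p = 0.0343), FASN (−1.0, adjusted p = 0.00155) and FADS1 (−0.64, adjusted p = 0.0426). TM7SF2 and SC5D, called at both times under i-BET858, had interactions of −0.17 and −0.16 that did not pass the test (adjusted p = 0.502 and 0.672). Between the DMSO libraries themselves, 0 of 31 genes were called at 24 h against 4 h, where 0% of all genes rose and 0.0386% fell. Unadjusted p-values below 0.05 were seen for 2 of them by edgeR, HMGCS1 and STARD4, and for 9.17% of all genes. DESeq2 also called 0 of the 31, where it called 1.34% of the genes it tested, and the largest value was −0.57 for INSIG1 (adjusted p = 0.746).

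**Figure D3:**
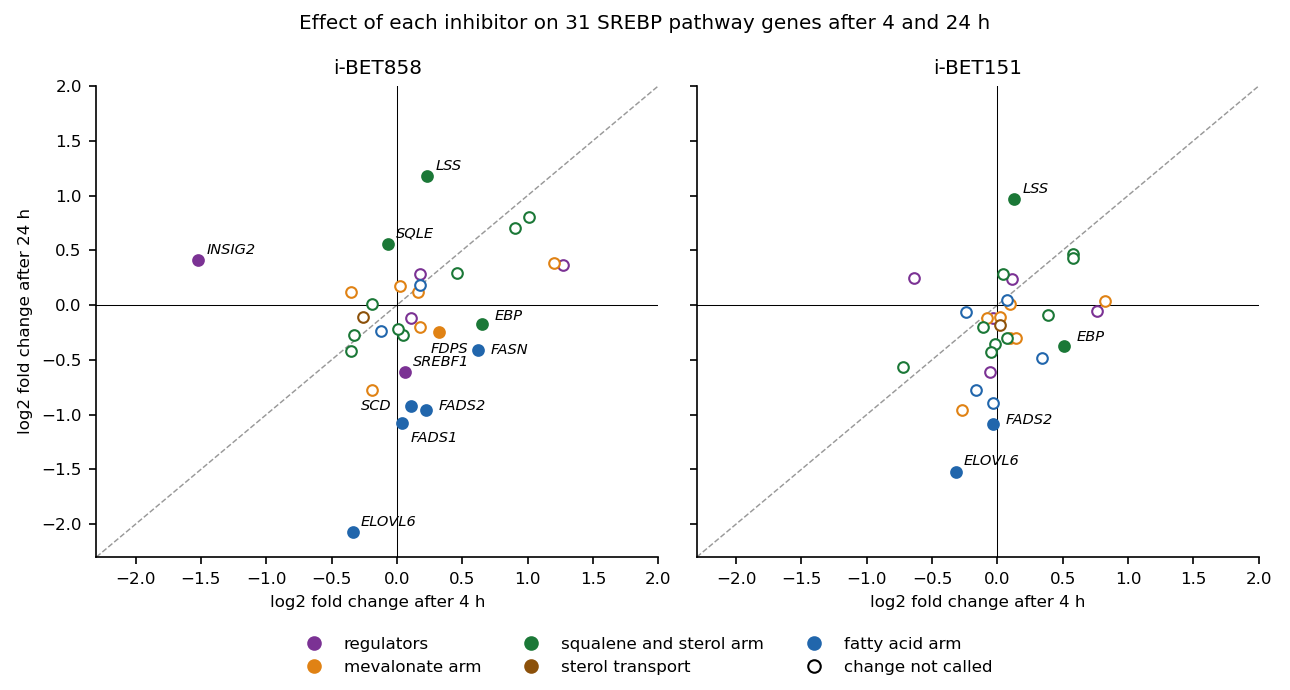
Log2 fold change against DMSO after 4 h (x axis) and 24 h (y axis) of the 31 genes under i-BET858 (left) and i-BET151 (right), coloured by role, with filled and named points where the change between the times was called and a dashed line of equal values. INSIG2, at −1.52 and 0.41, lies far above the line under i-BET858, and ELOVL6, FADS1, FADS2, SCD and FASN lie below it.

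The inhibitors were compared directly at the same dose and time, 31 genes at each of 2 times. No gene of the 31 differed at either time with p-values adjusted over all genes tested, where 0.971% of all genes differed at 4 h and 0.21% at 24 h. By edgeR 2 genes at 4 h and 8 at 24 h had an unadjusted p below 0.05, where 11.9% and 11.4% of all genes did. DESeq2 also called 0 and 0, where it called 5.21% and 2.81% of the genes it tested. The differences with the lowest unadjusted p were those of TM7SF2 at 4 h (i-BET858 higher by 0.43, 95% confidence interval 0.15 to 0.71, adjusted p = 0.155) and INSIG2 at 4 h (−0.88, interval −1.52 to −0.25, adjusted p = 0.208). At 24 h they were those of TM7SF2 (0.33, interval 0.09 to 0.57, adjusted p = 0.269), SQLE (0.28, interval 0.07 to 0.49, adjusted p = 0.27), FDFT1 (0.39, interval 0.07 to 0.70, adjusted p = 0.313) and ELOVL6 (−0.55, interval −0.99 to −0.10, adjusted p = 0.315). SREBF1 and SREBF2 differed by 0 at 24 h, with intervals of −0.24 to 0.25 and −0.21 to 0.21. Since the intervals of the 31 genes reach from −1.52 to 1.43 at 4 h and from −0.99 to 1.20 at 24 h, a missed threshold does not show that the inhibitors act alike on them.

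With the replicate block, 5 genes differed between the inhibitors at 4 h, where 9.63% of all genes did, and 3 at 24 h, where 4.37% did. At 4 h they were INSIG1 (0.58, adjusted p = 0.00319), INSIG2 (−0.87, adjusted p = 0.00756), IDI1 (0.37, adjusted p = 0.0228), TM7SF2 (0.43, adjusted p = 0.00374) and FASN (0.30, adjusted p = 0.0129). In each of these 5 genes the difference had the same sign in all 3 replicate numbers and the sign of the i-BET858 effect. This is not separate evidence, since the blocked fit favours such genes and both comparisons use the same i-BET858 libraries. At 24 h they were FDFT1 (0.38, adjusted p = 0.0386), TM7SF2 (0.33, adjusted p = 0.027) and ELOVL6 (−0.54, adjusted p = 0.0182), again with 1 sign in all 3 replicate numbers. Without replicate 3, 10 genes differed at 24 h, 9 higher under i-BET858 and ELOVL6 lower (−0.55, adjusted p = 0.00983), where 7.29% of all genes differed. The 9 were INSIG1 (0.75, adjusted p = 0.00104), TM7SF2 (0.40), FDFT1 (0.39), DHCR7 (0.35), IDI1 (0.34), SQLE (0.31), FASN (0.30), LSS (0.29) and FADS2 (0.29), with adjusted p = 0.041 at most. INSIG2 was the 1 gene called at 4 h (−0.91, adjusted p = 0.0458), where 2.29% of all genes were.

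Replicate 1 stood apart for these genes at 4 h. In the DMSO group, 24 of the 31 genes were higher in replicate 1 than in the mean of replicates 2 and 3 (median log2 ratio 0.26), against a median of −0.01 over all genes. With i-BET858 it was 21 genes (0.24) and under i-BET151 25 genes (0.24). At 24 h replicate 3 was the higher one instead, for 22, 21 and 23 of the 31 genes (0.21, 0.04 and 0.16). The libraries of a number did not all move alike, since the 24 h shift under i-BET858 was close to 0, and at 4 h replicate 2 of i-BET151 had only 3 of the 31 genes above the mean of the other two (median −0.34), against 6 and 8 genes (−0.14 and −0.13) in replicate 2 of DMSO and i-BET858. For INSIG1 and IDI1 the ratios within replicate numbers varied less than the levels did.

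**Figure D4:**
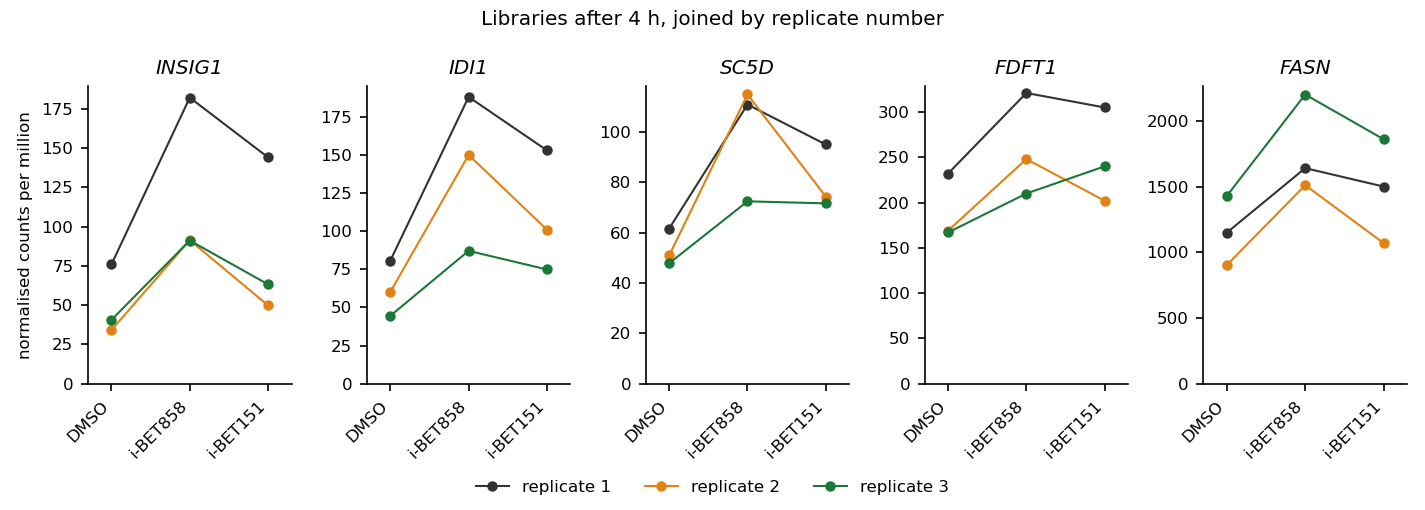
Normalised CPM (y axis, from 0) of INSIG1, IDI1, SC5D, FDFT1 and FASN in the 9 libraries at 4 h, by treatment (x axis), with a line for each replicate number. For INSIG1 and IDI1 the line of replicate 1 lies above the others in all treatments, and the rise from DMSO to i-BET858 has log2 ratios of 1.17 to 1.42 for INSIG1 and 0.97 to 1.32 for IDI1.

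Around the 31 genes, 52 further genes of the same metabolism were listed, of which 51 were tested. Of these, 14 rose and 8 fell after 4 h of i-BET858, 12 and 4 after 4 h of i-BET151, 17 and 11 after 24 h of i-BET858, and 15 and 8 after 24 h of i-BET151. These counts stand against shares of all genes of 14.5 and 16.3%, 7.81 and 8.43%, 20.5 and 21.3%, and 17.2 and 16.6% that rose and fell, in the same order, and no test set the list against all genes. Among the 20 genes of fatty acid synthesis and activation, 8 rose and 5 fell after 24 h of i-BET858 and 7 and 4 under i-BET151. ELOVL7, an elongase of long-chain fatty acids, rose in all 4 comparisons (1.48, 1.13, 1.82 and 1.54 after 4 h of i-BET858, 4 h of i-BET151, 24 h of i-BET858 and 24 h of i-BET151), opposite to ELOVL6 at 24 h. ACSL1, which activates fatty acids with coenzyme A, rose as well (1.27, 1.12, 1.86 and 1.57). THRSP, a lipogenic factor at 3.28 ± 1.36 CPM with DMSO at 24 h, fell after 24 h of i-BET858 (log2 fold change −2.0, adjusted p = 0.0096) and of i-BET151 (−2.54, adjusted p = 0.00396).

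For the smaller lists, the shares of all genes that rose and fell were again 14.5 and 16.3% after 4 h and 20.5 and 21.3% after 24 h of i-BET858, and 7.81 and 8.43% and 17.2 and 16.6% under i-BET151. Of the 12 genes of LXR signalling and of sterol export, uptake and storage, 5 rose and 3 fell under i-BET858 at each time, and under i-BET151 3 rose and 1 fell at 4 h and 4 rose and 0 fell at 24 h. ABCG1, a sterol exporter, rose in all 4 comparisons (2.03, 1.44, 1.88 and 1.49), from 1.98 ± 0.387 CPM with DMSO to 8.11 ± 1.85 after 4 h of i-BET858. ABCA1, the exporter that loads apolipoproteins, fell by 1.25 after 24 h of i-BET858 (adjusted p = 0.00473). MYLIP, a ubiquitin ligase of lipoprotein receptors, rose by 1.35 and VLDLR, one of those receptors, fell by 1.35 after 4 h of i-BET858. NPC1 and NPC2, which move cholesterol out of lysosomes, rose by 1.04 and 1.01 after 24 h of i-BET858. Of the 9 genes of SREBP processing and turnover, 1 rose and 2 fell at 4 h and 2 rose and 2 fell at 24 h, with each inhibitor. RNF145, a ubiquitin ligase that acts on SCAP, fell in all 4 comparisons (log2 fold changes −0.70, −0.54, −1.0 and −0.73 in the order above, adjusted p = 0.00562 at most). Of the 10 other sterol and isoprenoid enzymes tested, 2 rose and 2 fell after 4 h of i-BET858, 2 and 0 under i-BET151, and 2 and 1, and 2 and 2, at 24 h.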

How the data were processed

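The 18 poly-A libraries of OVCAR-3 (6 groups with 3 biological replicates each) were sequenced as read pairs. The authors deposited counts of reads for each gene, with no normalization. As their methods state, reads were checked with FastQC, aligned to GRCh38/hg38 with STAR and counted with STAR's gene counting, and the submitters' processing notes also name DESeq2. Versions, gene annotation and strand column are not given in the sources used here. STAR's gene counting leaves out reads that overlap several genes, which lowers the counts of genes with shared exons. All values were whole numbers of at least 0. Of 58825 genes, 23896 had no count in any library and 58472 identifiers matched GENCODE 44, which gave symbols, positions and exon lengths. Library totals of 27323969 to 46299994 counts gave each of the 31 genes at least 36 counts in every library.

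The tests used edgeR 4.0.16 under R 4.3.3 (TMM normalization, filterByExpr, quasi-likelihood test), with the 3 treatments of a time in 1 fit and all 18 libraries in 1 fit for the interaction and the comparison of the DMSO groups. P-values were adjusted over all genes tested by the method of Benjamini and Hochberg, and genes under 0.05 were called. CPM are counts scaled to a common library size after TMM. Alternatives were DESeq2 1.42.0, its size factors or total library size in edgeR, no low-count filter or a floor of 10 counts per library, fits with fewer or more groups, the replicate number as a block, replicates 1 and 2 only, each library left out in turn, and a minimum fold change of 2. The tests were tried on simulated data without shared differences between replicate numbers, so that trial does not cover the differences seen here. The 31 genes and all gene lists were chosen with earlier results of these data known. All 31 are named, with values per library for the regulators and for genes with a called change of at least 2-fold against DMSO. Of the 52 further genes, those called with at least 2-fold are named.

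After group means were taken out, same-numbered libraries correlated over genes at 0.125 to 0.344 at 4 h and 0.145 to 0.33 at 24 h, and differently numbered ones at −0.311 to 0.285. All 18 values of the same number lay above 0.1, with medians of 0.274 at 4 h and 0.263 at 24 h. Differently numbered libraries had medians of −0.204 and −0.232, but the ranges overlapped at both times. An offset of replicate 3 that the groups share would also give positive same-number values. The correlations thus do not show that every number pairs the libraries, which the blocked fits assume. The main tests had no block, as their design was set without one, and blocked values are given beside them where they change a call. Between replicates 1 and 2 of a group, counts differed by 4.19 to 22 times counting error (chi-square per degree of freedom). Pairs with replicate 3 differed by 42.5 to 66.1 times, so no library was a copy of another. The fits of replicates 1 and 2 alone thus rest on fewer libraries with a smaller spread, and so do their adjusted p-values.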

Additional observations from a re-analysis of the deposited data

Results flagged for a closer look

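The effect of i-BET858 differed between 4 and 24 h in 11 of the 31 genes by the interaction term in edgeR (Benjamini-Hochberg adjusted p under 0.05), or 35.5% of them, against 27.2% of all genes. The effect was higher at 24 h for INSIG2 (1.97, adjusted p = 0.000469), LSS (1.00, adjusted p = 0.00613) and SQLE (0.68, adjusted p = 0.00437). It was lower at 24 h for ELOVL6 (−1.69, adjusted p = 0.000364), FADS2 (−1.13, adjusted p = 0.00129), FADS1 (−1.08, adjusted p = 0.00121), FASN (−0.99, adjusted p = 0.0454) and SCD (−0.98, adjusted p = 0.0129). It was also lower for EBP (−0.77, adjusted p = 0.00793), SREBF1 (−0.63, adjusted p = 0.0124) and FDPS (−0.53, adjusted p = 0.0432). The blocked fit called 14, with HMGCS1, MVK and IDI1 added. The calls of FASN and FDPS were each lost when 1 of several libraries was left out. For FASN these were 8 libraries, namely replicates 1 and 2 of DMSO, 1 of i-BET151 and 1 and 3 of i-BET858 at 4 h, and replicate 3 of DMSO and replicates 1 and 2 of i-BET858 at 24 h (−1.05 to −0.81, adjusted p 0.0531 to 0.114). For FDPS they were 11 libraries, namely replicates 2 and 3 of DMSO, 1 of i-BET151 and 1 and 3 of i-BET858 at 4 h, and replicates 2 and 3 of DMSO, 1 and 2 of i-BET151 and 1 and 2 of i-BET858 at 24 h (−0.52 to −0.45, adjusted p 0.0528 to 0.116), and the call was also lost in replicates 1 and 2 alone (−0.44, adjusted p = 0.069).

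The effect of i-BET151 differed between the times in 4 genes (12.9%, against 13.8% of all genes), namely LSS (0.86, adjusted p = 0.0291), EBP (−0.86, adjusted p = 0.00835), ELOVL6 (−1.18, adjusted p = 0.0119) and FADS2 (−1.04, adjusted p = 0.00572). The LSS call was lost without replicate 2 of i-BET151 or replicate 3 of DMSO at 4 h, or replicate 1 or 2 of DMSO or replicate 3 of i-BET151 at 24 h (0.70 to 0.82, adjusted p 0.0586 to 0.0808). Whether these changes over time differ between the inhibitors was not tested.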

How the results depend on the processing

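The count of the 31 genes called moved by more than 1.5 times under these settings. After 4 h of i-BET858 (7 called) it was 12 with the replicate block and 4 with a fold change of at least 2, and 4 to 7 with libraries left out (4 without replicate 2 of DMSO or replicate 1 of i-BET858). After 4 h of i-BET151 (2 called) it was 4 with DESeq2, without the low-count filter or with all libraries in 1 fit, 1 with total library size, 10 with the block, 0 with the fold change, and 1 to 4 with libraries left out. It was 1 without any 1 of the DMSO libraries or replicate 1 or 2 of i-BET151, and 4 without replicate 3 of all groups. At 24 h (12 called with each) it was 3 for i-BET858 and 2 for the other inhibitor with the fold change, and 10 to 18 and 8 to 20 with libraries left out (18 and 20 without replicate 3). Between the inhibitors (0 called) it was 5 at 4 h and 3 at 24 h with the block, 1 at 24 h without the filter, and 0 to 1 and 0 to 10 with libraries left out (1 and 10 without replicate 3). For the change of the i-BET858 effect (11) it was 4 with the fold change and 9 to 11 with libraries left out. For i-BET151 (4) it was 7 with DESeq2 or at least 10 counts, 9 without the filter, 11 with the block, 2 with the fold change and 3 to 9 with libraries left out. Between the DMSO groups (0) it was 2 without the filter and 0 with libraries left out. Each cause was not tested.

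No called value turned direction in the alternative fits. Of the uncalled values against DMSO that did, the ones farthest from 0 were HSD17B7 after 4 h (−0.33, and 0.05 in 1 fit) and ACACA after 24 h (−0.24, and 0.06 in 1 fit) of i-BET858. With total library size the 4 h values were −0.10 for SREBF1, −0.06 for SREBF2, −0.05 for SCD and −0.12 for FADS1 under i-BET858 and −0.01 for SQLE under i-BET151. With libraries left out, those of i-BET858 at 4 h ranged from −0.12 to 0.22 for SREBF2, −0.17 to 0.04 for SQLE, −0.04 to 0.36 for SCD and −0.06 to 0.15 for FADS1. Those of i-BET151 at 4 h ranged from −0.15 to 0.07 for SREBF1, −0.19 to 0.07 for SREBF2, −0.04 to 0.16 for SQLE, −0.27 to 0.23 for SCD and −0.17 to 0.14 for FADS2. After 24 h of i-BET151 INSIG1 ranged from −0.44 to 0.17 and IDI1 from −0.03 to 0.15. Other uncalled values turned as well, and the ranges of some over all 18 alternative fits follow. MSMO1 ranged from −0.2 to 0.28 after 4 h of i-BET858 and from −0.32 to 0.21 after 4 h of i-BET151. STARD4 ranged from −0.29 to 0.22 after 4 h of i-BET151, and NSDHL from −0.14 to 0.13 after 4 h of i-BET858. Total library size moved the median of all genes after 4 h of i-BET858 from 0.02 to −0.14, that of the 31 genes from 0.11 to −0.06 (0.02 to −0.03 under i-BET151), and the share of higher calls from 47.1 to 32%. After 24 h of i-BET858 it moved the median of all genes from −0.01 to −0.1, and the share was 41.5% instead of 49%. The median of the 31 genes went from −0.12 to −0.21 at that time (−0.18 to −0.21 under i-BET151).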
